A study of Mus with 2 samples.

Results

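T cell positive spots of the control CT26 tumor are the places on 1 tissue section where transcripts of T cells were counted most. A spot is a small barcoded area of the section that captures RNA from several cells at the same time. Its RNA is counted by unique molecular identifiers (UMIs), tags that let each captured molecule be counted 1 time. Spots were chosen by their own counts: a spot is called T cell positive when it holds 2 or more UMIs summed over 8 genes. These are Cd3d, Cd3e and Cd3g, the signaling chains of the T cell receptor complex, Trac, the constant part of its alpha chain, Cd2, an adhesion receptor, Cd8a and Cd8b1, the coreceptor of cytotoxic T cells, and Cd4, the coreceptor of helper and regulatory T cells. The rule found 149 of 2219 spots with more than 200 detected genes in the control section, and 4169 such spots were measured in both sections. They were compared with the 1620 spots of the same section that held 0 UMIs of the 8 genes, called 0-UMI spots below.

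CT26 is a mouse colon carcinoma cell line. In the study, 200000 CT26 cells were placed under the skin of female BALB/c mice aged 6 to 8 weeks, the strain from which the line derives. The control mouse was given PBS and the treated mouse 10 µg of recombinant IL-7 (rIL7), into the peritoneum, on days 11 and 13, and tumors were collected on day 15 and cut at 10 µm. Each group has 1 section, so no value below has a replicate check and no test was run. Intervals are 95% intervals of counting error only, and spots of 1 section are neighbors in 1 tissue, not replicates.

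T cells enter a tumor from its vessels and recognize peptides that other cells show on MHC molecules. CD8 T cells read MHC class I and kill through granzymes and perforin, whereas CD4 T cells read MHC class II, which macrophages and dendritic cells carry. Activated T cells release interferon gamma, which makes neighboring cells raise their antigen presentation and the chemokines Cxcl9 and Cxcl10, ligands of the T cell receptor Cxcr3. CT26 tumors are known to attract both T cells and large numbers of macrophages.

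Few molecules carried the call. The 149 spots held 357 UMIs of the 8 genes, and 101 of them stood at the threshold with 2 UMIs. A further 38 spots held 3 UMIs, 9 held 4 and 1 held 5. Just outside the threshold were 450 spots with 1 UMI. The positive spots made up 6.71% of the section (Clopper-Pearson interval 5.71 to 7.84%). In their UMIs, Cd3g led with 90, followed by Trac with 82, Cd8a with 58, Cd3d with 43, Cd4 with 23, Cd3e with 22, Cd2 with 21 and Cd8b1 with 18. At least 1 CD3 chain or Trac UMI was found in 132 spots (88.6%), and 120 spots held UMIs of 2 or more different rule genes. The other 17 spots rested on Cd2, Cd4, Cd8a or Cd8b1 alone. Cd8 UMIs without Cd4 were counted in 54 spots, Cd4 without Cd8 in 14, both in 6, and neither in 75.

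**Figure D1:**
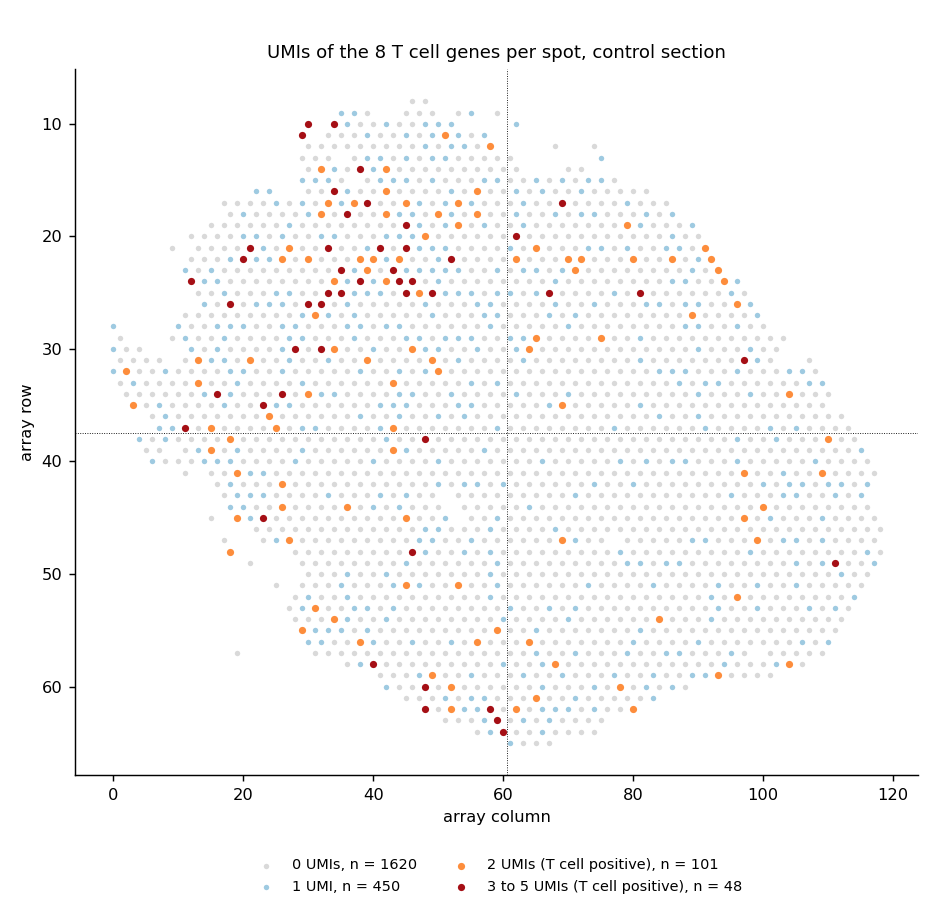
Map of the control section, 1 point per spot, by array column and array row (grid positions on the slide). Colors give the UMIs of the 8 T cell genes, and dotted lines split the section into 4 quadrants at the median row and column. The upper left quadrant holds 76 of the 149 T cell positive spots.

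The spots were spread unevenly over the section. In the upper left quadrant of the map 11.4% of spots were positive (76 of 666, interval 9.10 to 14.1%). The share was 5.38% in the upper right, 6.78% in the lower left and 2.77% in the lower right (18 of 650, interval 1.65 to 4.34%). The section's edge stood out little. Within 2 grid steps of the outline lay 19.5% of T cell positive spots (29 of 149, interval 13.4 to 26.7%) and 16.5% of 0-UMI spots. Positive shares were 7.23% at 1 to 2 steps, 8.01% at 3 to 5, 8.12% at 6 to 10 and 4.12% at 11 or more steps. By CPM, counts per 1000000 UMIs of the summed spots, the 8 genes went from 39.1 at the edge to 31.7 at 11 or more steps.

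Depth moved with the call. T cell positive spots held a median of 12242 UMIs and 4574 genes, against 9178 UMIs and 3854 genes in 0-UMI spots and 10634.5 UMIs in spots with 1 UMI. Positive shares were 3.96%, 4.34% and 4.86% in the lower depth quartiles of the section and 13.7% in the deepest (76 of 555, interval 10.9 to 16.8%). The CPM of the 8 genes did not follow that order, being 41.2 in the shallowest quartile and 38.5 in the deepest. When each spot was thinned at random to 5900 UMIs and 217 shallower spots were left out, 58 of 2002 spots (2.90%, interval 2.21 to 3.73%) still met the rule. More RNA in a spot, more T cells and more RNA per T cell cannot be told apart in such counts. Mitochondrial genes took a median of 0.226% of UMIs in T cell positive and 0.170% in 0-UMI spots.

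T cell positive spots mostly stood alone. They formed 111 patches of touching spots, of which 95 were a single spot, 7 were pairs and 9 held 3 or more, the largest with 9 spots. Of the neighbors of T cell positive spots, 10.7% were positive themselves (90 of 845), against 9.52% around 1-UMI spots and 5.46% around 0-UMI spots (511 of 9356). In the upper left quadrant the shares were 16% around positive (interval 12.7 to 19.8%) and 9.40% around 0-UMI spots, and in the upper right 10.2% (5.7 to 16.6%) and 4.52%. The same difference was not detectable in the lower left, with 3.53% (1.31 to 7.52%) against 6.24%. In the lower right 0 of 101 neighbors of positive spots were positive (interval 0 to 3.59%), against 2.62% around 0-UMI spots. Nor was it detectable after thinning to 5900 UMIs, with 1.28% (4 of 312, interval 0.350 to 3.25%) around positive and 2.71% around 0-UMI spots. Adjoining pairs share spots, so these intervals are too narrow.

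The name of the spots was checked against T cell genes that the rule did not use. Their list of 24 genes, 22 of them found in the files, stood at 315 CPM in T cell positive spots and 233 CPM in 0-UMI spots, a ratio of 1.35 (interval 1.24 to 1.47). Quadrants gave 1.28 to 1.44. Ptprcap, a partner of the phosphatase CD45, was 2.31 times as high (interval 1.59 to 3.29), with 41 UMIs in positive spots. Ltb, which encodes lymphotoxin beta, was 2.18 times as high (1.65 to 2.85), though quadrants ran from 0.707 to 3.08. Cd6, a T cell surface receptor, was 2.69 times as high (1.17 to 5.65, 10 UMIs). Thy1, on chromosome 9 at 44043384 to 44048579 of GRCm38, was at 68.6 and 37.7 CPM, a ratio of 1.82 (1.5 to 2.20). Thy1 is also a fibroblast gene and stands in that list too. The costimulatory receptor Cd28 had 4 UMIs in positive and 5 in 0-UMI spots, a ratio of 6.45 (1.28 to 30.0).

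Other T cell genes did not separate the sets. Intervals included 1 for Trbc1 at 1.27 (0.912 to 1.74), the kinase gene Lck at 1.30, the adaptor Skap1 at 1.48, the receptor chain Cd247 at 1.24, and Cd5 at 1.83. They also included 1 for members with ratios below it: Zap70 at 0.962, Lat at 0.926, Txk at 0.871 and Ubash3a at 0.827. These had 4 to 10 UMIs each in positive spots, and Bcl11b and Sit1 had 0. Over the whole list, 6 members had an interval above 1 and 0 had one below. Among the 6 was Trdc, at 2.42 (1.01 to 5.22) with 9 UMIs. The share of all genes with such an interval was not counted, so the 6 have no background to be read against. Trbc2, the second constant gene of the T cell receptor beta chain, was at 88.9 CPM in T cell positive spots and 97.9 CPM in 0-UMI spots, a ratio of 0.908 (0.772 to 1.06). It supplied 42.0% of the list's UMIs in 0-UMI spots, and without it the list's log2 ratio was 0.74 in place of 0.43. Trbc1 and Trbc2 are near copies and may share reads. Of the 4 members with a mean of at least 20 CPM over both sets, 2 were at least 1.5-fold higher and 0 lower, where over all 7567 genes at that level 0.74% were higher and 0.714% lower. Of the 8 members with at least 5 CPM, 3 were higher, where 2.83% of 10684 genes were higher and 2.38% lower. The median ratio was 1.55 over those 4 members and 0.977 over all genes of that level.

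Genes of killing were higher in T cell positive spots. The cytotoxicity list summed to 534 CPM against 359 CPM in 0-UMI spots, a ratio of 1.49 (1.39 to 1.59), with quadrants from 1.26 to 1.88. Gzmb, the granzyme that starts apoptosis in target cells, had a ratio of 1.67 (1.24 to 2.20) with 61 UMIs in 43 positive spots. Its values were 31 and 18.6 CPM. Gzma was at 1.63 (1.31 to 2.02), Prf1, the pore protein perforin, at 1.53 (1.12 to 2.04), Nkg7, a protein of cytotoxic granules, at 1.85 (1.30 to 2.57) and Ctsw, a protease of killer lymphocytes, at 1.88 (1.23 to 2.79). Ccl5, a chemokine that effector T cells and macrophages make, was at 152 and 106 CPM, a ratio of 1.43 (1.26 to 1.62). Of 7 members at 20 CPM, 4 were at least 1.5-fold higher (Gzma, Gzmb, Gzmc and Prf1, against 0.74% of all genes) and 0 lower, with a median ratio of 1.53.

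Depth and place moved with part of this. When 0-UMI spots were weighted to the quadrants and, within each, 3 depth classes of the positive spots, the list ratio was 1.19. None of the 4 genes then reached 1.5-fold, Gzma being at 1.39, Gzmb at 1.402, Gzmc at 1.15 and Prf1 at 1.401. The granzymes Gzmd, Gzme and Gzmf, which activated killer cells make in mice, had ratios of 1.36, 1.58 and 1.251, and of 1.11, 0.981 and 0.816 when weighted to depth deciles. Under depth deciles Gzmb was at 1.48 and Prf1 at 1.49, and Prf1 ran from 0.601 to 1.74 over quadrants. The granzyme genes are alike and reads may be split between them. Per spot, the list ranged from 0 through a median of 376 to 4012 CPM in positive spots and from 0 through 247 to 12075 CPM in 0-UMI spots, so the sets overlapped over almost their whole range. Gzmk, a granzyme of early effector cells, was at 0 UMIs in positive spots, which allows up to 1.52 CPM. Ifng itself was sparse, with 9 UMIs in positive spots at 4.57 CPM and 31 at 1.96 CPM in 0-UMI spots, a ratio of 2.34 (0.980 to 5.04).

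Regulatory T cell genes had the largest ratio among the immune lists with an interval above 1, on few molecules. Together they stood at 39.7 CPM (78 UMIs) against 22.1 CPM, a ratio of 1.79 (1.38 to 2.30), and at 1.77 after weighting to quadrant and depth. The ratio was not even over depth, with 3.09, 4.1, 2.37 and 1.23 in the depth quartiles from shallowest to deepest. Tnfrsf18 (GITR), a receptor of the tumor necrosis factor family carried by these cells, had a ratio of 2.09 (1.21 to 3.46), Tnfrsf4 (OX40) of 1.68 (1.04 to 2.63) and Il2ra, the high-affinity chain of the IL-2 receptor, of 2.69 (1.17 to 5.65). Foxp3, the factor that defines the lineage, had 6 UMIs and a ratio of 2.42 (0.795 to 6.24). The interval also included 1 for Ikzf2 at 1.215 (0.581 to 2.30) and Ctla4 at 1.61 (0.5485 to 3.94). Ikzf4 had 1 UMI in positive spots and Ccr8 0. The list was present in 54 of the 149 spots, and its 5 richest spots held 20.5% of its UMIs there.

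Checkpoint receptors stood at 164 CPM against 129 CPM, a ratio of 1.27 (1.13 to 1.43) and 1.12 after weighting to quadrant and depth. Most of these UMIs were of Vsir (VISTA), which myeloid cells also carry, at 58.4%. Vsir had a ratio of 1.29 (1.1 to 1.5). Lag3, which marks activated and exhausted T cells, had 9 UMIs and a ratio of 2.79 (1.15 to 6.14). Pdcd1 (PD-1) had 3 UMIs in positive spots at a ratio of 1.05 (0.202 to 3.48), Ctla4 6 UMIs, and Tigit 0 in both sets, too few to compare at this depth. Havcr2 (TIM-3) had 38 UMIs and a ratio of 1.15 (0.794 to 1.62), and Entpd1 (CD39) 49 UMIs and 1.16 (0.843 to 1.57). Neither of the 2 members with at least 20 CPM passed 1.5-fold. Among the ligands, Cd274 (PD-L1) was at 21.4 CPM in T cell positive and 11.2 CPM in 0-UMI spots, a ratio of 1.90 (1.32 to 2.67), though quadrants ran from 0.295 to 4.4. Pvr, a ligand of Tigit, was lower at 0.808 (0.692 to 0.939). The ligand list as a whole was at 0.978 (0.889 to 1.07).

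Genes of naive T cells and of the IL-7 pathway lay near a ratio of 1 as lists, on few molecules for the most telling members. Naive and homing genes had a ratio of 1.18 (1.005 to 1.37), with Klf2 supplying 70.7% of their UMIs in positive spots. Tcf7 had 1 UMI and Ccr7 4. Il7r, the receptor chain that binds IL-7, had 9 UMIs and was at 4.57 CPM in T cell positive and 3.34 CPM in 0-UMI spots, a ratio of 1.37 (0.594 to 2.80). Il2rg, the chain that the IL-7 receptor shares with other cytokine receptors, was better counted and had a ratio of 1.37 (1.17 to 1.60). The IL-7 list as a whole was at 0.975 (0.902 to 1.05). Jak3, the kinase bound to that chain, went the other way at 0.629 (0.493 to 0.792), with 39.7 against 63.1 CPM and quadrants from 0.314 to 1.37.

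Chemokines that recruit T cells were higher. Their list stood at 766 CPM against 526 CPM, a ratio of 1.46 (1.38 to 1.54), and at 1.41 after weighting to quadrant and depth. Cxcl9, on chromosome 5 at 92321331 to 92328079 of GRCm38, had the largest ratio of all genes named by the size rule. Its 252 UMIs in positive spots gave 128 CPM, its 723 UMIs in 0-UMI spots 45.6 CPM, a ratio of 2.81 (2.42 to 3.25). Quadrants gave 1.12 to 2.68, and the ratio after weighting to quadrant and depth was 2.13. Cxcl10 was at 230 and 166 CPM, a ratio of 1.38 (1.249 to 1.53), and Ccl4, an inflammatory chemokine, at 1.76 (1.30 to 2.34). Cxcl16, the ligand of Cxcr6, was at 1.2 (1.08 to 1.33). The lymphoid tissue chemokines Ccl19 and Ccl21a were at 0 UMIs in T cell positive spots. Of 5 members at 20 CPM, 2 passed 1.5-fold higher and 0 lower, against 0.74% and 0.714% of all genes. Their receptors were sparse: Cxcr3 had 7 UMIs and a ratio of 2.57 (0.925 to 6.22) and Cxcr6 3 UMIs, while Ccr2, a receptor of monocytes, was at 1.32 (1.13 to 1.53).

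Genes that interferon gamma induces were higher by a smaller and more even margin. The list of 19 genes stood at 1921 CPM against 1570 CPM, a ratio of 1.22 (1.18 to 1.27), with 1.16 to 1.32 over quadrants and 1.2 after weighting to quadrant and depth. The guanylate-binding protein gene Gbp4 was at 1.44 (1.245 to 1.67), and Ciita, which switches on MHC class II genes, at 1.96 (1.46 to 2.59). Irf1 was at 1.16 (1.02 to 1.31), and the proteasome subunit gene Psmb8, the list's most abundant member, at 1.08 (0.998 to 1.16). Of 16 members at 20 CPM, 15 had a ratio above 1 and 2 passed 1.5-fold higher, against 0.74% of all genes. These were Gbp3, at 1.503 and at 1.491 after weighting to quadrant and depth, and Ciita, whose quadrants ran from 0.801 to 4.07. Type I interferon genes had a ratio of 1.21 (1.15 to 1.27), with 1.07 to 1.72 over quadrants.

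MHC class II genes were higher in T cell positive spots. They stood at 4085 CPM in T cell positive spots (8037 UMIs) and 2541 CPM in 0-UMI spots, a ratio of 1.61 (1.57 to 1.65). H2-Aa, the alpha chain of the I-A molecule, on chromosome 17 at 34282744 to 34287823 of GRCm38, was at 551 and 310 CPM, a ratio of 1.78 (1.66 to 1.90). H2-Eb1 had a ratio of 1.75, H2-Ab1 of 1.65, Cd74, the invariant chain, of 1.52, and the peptide loading chains H2-DMa and H2-DMb1 of 1.54 and 1.46. Of 7 members at 20 CPM, 6 passed 1.5-fold higher, against 0.74% of all genes. After weighting to quadrant and depth only Ciita of these 6 still passed, at 1.74, and the other 5 were between 1.19 and 1.27. Per spot, T cell positive spots ranged from 410 through a median of 3744 to 12853 CPM and 0-UMI spots from 0 through 2126 to 10134 CPM. The sets overlapped, with 126 of the 149 positive spots (84.6%) above the median of the 0-UMI spots. MHC class I, which nearly all cells carry, had a ratio of 1.14 (1.12 to 1.16). Its quadrants gave 1.01 to 1.13, and weighting to quadrant and depth gave 1.04.

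**Figure D2:**
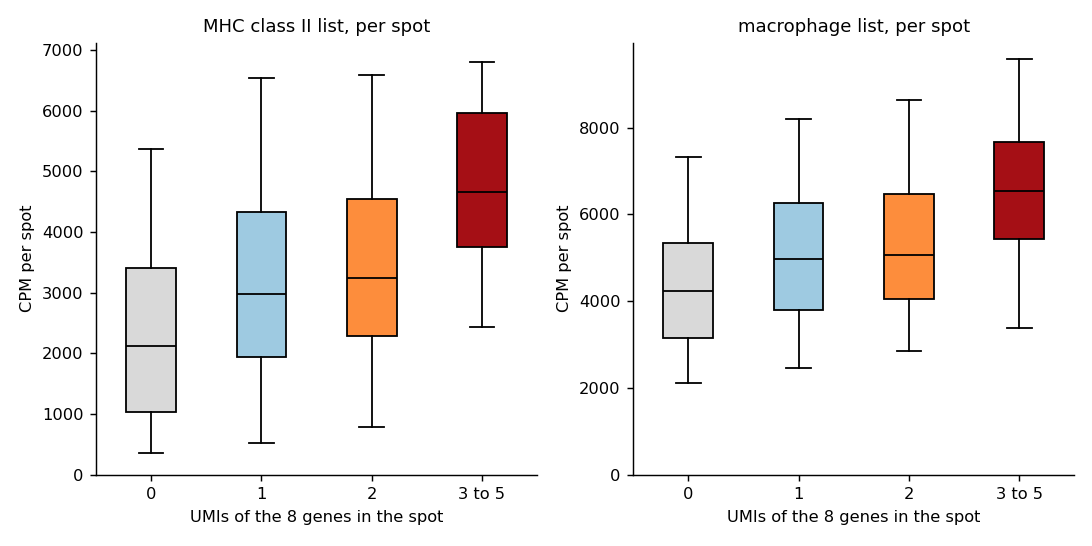
MHC class II and macrophage list levels per spot (CPM) in control spots with 0, 1, 2 or 3 to 5 UMIs of the 8 T cell genes. Boxes give the median and quartiles and whiskers the 5th to 95th percentile of spots. Boxes overlap between neighboring classes, and the box of 3 to 5 UMIs lies highest in both panels.

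The ratio of MHC class II also followed place and depth. It was 1.23, 1.46, 1.46 and 1.33 in the upper left, upper right, lower left and lower right quadrant, so the section-wide ratio of 1.61 lay above the ratio in each quadrant. Level and share of positive spots varied together between quadrants. In 0-UMI spots of the upper left quadrant, richest in T cell positive spots, the list stood at 3771 CPM, and in those of the lower right, poorest in them, at 1299 CPM. Weighting 0-UMI spots to quadrants gave 1.29 and to quadrants and depth 1.23. T cell positive spots remained higher in each of the 4 quadrants and in each depth quartile, where ratios ran from 1.36 to 1.76.

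Macrophage genes followed MHC class II at a smaller size. They stood at 6259 CPM against 4661 CPM, a ratio of 1.34 (1.32 to 1.37), with 1.04 to 1.32 over quadrants and 1.09 after weighting to quadrant and depth. The complement genes C1qa, C1qb and C1qc, which tissue macrophages make, had ratios of 1.43, 1.28 and 1.38, Apoe of 1.38 and Adgre1 (F4/80) of 1.46. The general marker Cd68 was at 1.08 (0.952 to 1.21) and Mrc1 (CD206) at 1.13 (0.978 to 1.30). Of 11 members at 20 CPM, 0 passed 1.5-fold, although 11 had a ratio above 1. Monocyte genes gave 1.07 (1.02 to 1.12), with Ly6c2 at 1.73 (1.34 to 2.20) and Plac8 at 1.63 (1.35 to 1.97) but Fn1, the most abundant member and one that stromal and tumor cells also make, at 0.931 (0.874 to 0.991).

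Other immune cells were scarce or differed little. Dendritic cell genes had a ratio of 1.12 (1.03 to 1.22). Zbtb46, a factor of conventional dendritic cells, was lower, at 0.640 (0.416 to 0.948) with 27 UMIs. It was the 1 member of 4 with at least 5 CPM past 1.5-fold, where 2.38% of all genes at that level were lower. Siglech, a marker of plasmacytoid dendritic cells, had 5 UMIs against 6 and a ratio of 6.72 (1.62 to 26.4), while the cross-presenting cell markers Xcr1 and Clec9a had 1 and 2 UMIs. Natural killer (NK) cell genes had 40 UMIs and a ratio of 1.43 (0.993 to 2.00), and their defining receptor Ncr1 was at 0.944 (0.487 to 1.68). NK cells share most of the cytotoxicity list with T cells, and their part in it was not tested. B and plasma cell genes had 7 UMIs in the 149 spots, a ratio of 0.582 (0.228 to 1.245), with Ms4a1, Pax5 and Jchain at 0. Neutrophil genes were at 0.964 (0.869 to 1.07), but within them Mmp9 was at 1.76 (1.46 to 2.10) and S100a9 at 0.663 (0.547 to 0.799).

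The endothelial list as a whole had a ratio of 1.29 (1.13 to 1.46), with 0.934 to 1.56 over quadrants and 1.16 after weighting to quadrant and depth. None of its 3 members at 20 CPM passed 1.5-fold. An interval above 1 was found for 3 of its 10 members, without a count of such intervals over all genes. Kdr, the main receptor of vascular endothelial growth factor, was at 1.59 (1.04 to 2.37) and Vwf at 3.32 (1.16 to 8.42) with 7 UMIs. The junction genes Pecam1 and Cdh5 were both at 1.32, with intervals of 0.976 to 1.76 and 0.813 to 2.07, and Egfl7 was at 1.06 (0.782 to 1.4). Adhesion molecules that T cells bind on vessels gave 1.27 (1.16 to 1.40), and 1.14 after weighting to quadrant and depth. Vcam1, at 1.2, supplied 80.6% of their UMIs in positive and 85.6% in 0-UMI spots. Icam1 was at 39.7 and 22.7 CPM, a ratio of 1.75 (1.35 to 2.24). Fibroblast genes were at 1.16 (1.12 to 1.19), with 0.9145 to 1.14 over quadrants and 1.06 after weighting to quadrant and depth. Of these genes, Col1a1 was at 1.36 and Acta2, the actin of contractile stroma, at 1.64 (1.2 to 2.22). Pdgfra was at 0.994 (0.892 to 1.1).

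Tumor cell genes stood at nearly equal levels. Rpl39l and Baiap2l1, which mark CT26 cells in the study, stood together at 1283 CPM in T cell positive and 1310 CPM in 0-UMI spots, a ratio of 0.979 (0.939 to 1.02). Proliferation genes were at 1.03 (0.988 to 1.07). Hypoxia genes were lower, at 2869 CPM against 3443 CPM, a ratio of 0.833 (0.811 to 0.856), with 0.726 to 0.938 over quadrants and 0.883 after weighting to quadrant and depth. Bnip3, a gene of mitochondrial clearance that low oxygen induces, had a ratio of 0.638 (0.557 to 0.728), Ankrd37 of 0.659, Ndrg1 of 0.694, and Ldha, the lactate-forming enzyme of glycolysis, of 0.885 (0.852 to 0.919). None of the 8 members at 20 CPM had a ratio above 1, where the median ratio over all genes of that level was 0.977. The 2 members at least 1.5-fold lower, against 0.714% of all genes, were Bnip3 and Ankrd37. After weighting to quadrant and depth Bnip3 was at 0.657 and still passed, and Ankrd37 was at 0.721.

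**Figure D3:**
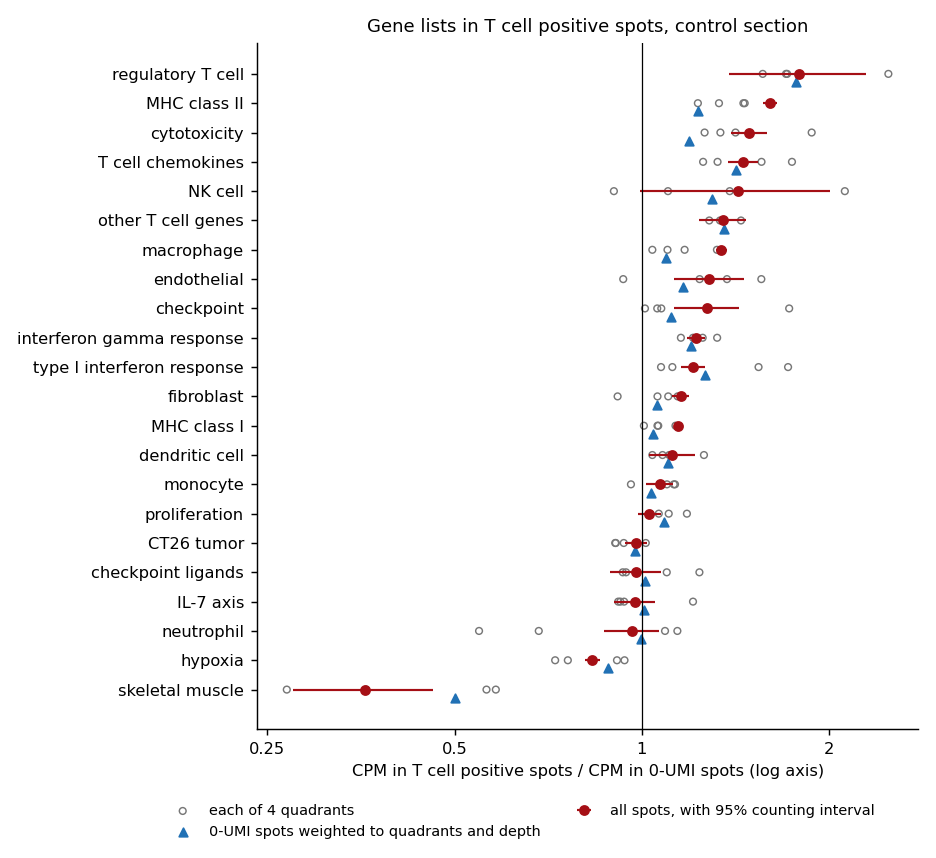
Ratio of CPM in T cell positive spots to CPM in 0-UMI spots for 22 gene lists of the control section, on a log axis. Filled circles with bars give all spots with the 95% counting interval, open circles each quadrant, and triangles the ratio after 0-UMI spots were weighted to the quadrants and depth of the positive spots. MHC class II falls from 1.61 to 1.23 and macrophage genes from 1.34 to 1.09 under the weighting, while regulatory T cell genes move from 1.79 to 1.77. Depth quartiles, not drawn, ran from 1.23 to 4.1 for regulatory T cell genes.

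The lists were then followed by the number of UMIs of the 8 genes. MHC class II stood at 2541, 3367, 3655 and 4875 CPM in spots with 0, 1, 2 and 3 to 5 UMIs, and macrophage genes at 4661, 5424, 5821 and 7066 CPM. Cytotoxicity genes stood at 359, 426, 494 and 607 CPM, and T cell genes outside the rule at 233, 255, 289 and 362 CPM. Hypoxia genes went down, from 3443 through 3213 and 2946 to 2727 CPM. Each of these series had 1 direction, and the step from 1 to 2 UMIs, where the threshold lies, was not larger than the other steps for MHC class II. Median depth went up in the same order, at 9178, 10634.5, 10902 and 13712.5 UMIs, and its part in these series was not tested beyond the weighting above. The series were not weighted to quadrants, between which the MHC class II level of 0-UMI spots also differed. The part of place was not tested.

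Spots without any rule UMI differed by their distance to T cell positive spots. MHC class II stood at 3268 CPM in the 409 0-UMI spots that adjoined a T cell positive spot, at 2704 CPM in the 494 spots 2 steps away and at 1871 CPM in the 717 spots farther off. Adjoining spots were thus 1.75 times as high as far ones (1.70 to 1.79), and T cell positive spots were higher again than adjoining ones (interval of the ratio 1.22 to 1.29). Macrophage genes stood at 5465, 4757 and 3989 CPM in the same order. Hypoxia genes were lowest beside T cell positive spots, at 3078, 3333 and 3802 CPM. Cytotoxicity genes stood at 440, 343 and 314 CPM, adjoining spots being 1.4 times as high as far ones (1.31 to 1.49), and T cell chemokines at 597, 521 and 478 CPM. For the T cell genes outside the rule there was no such slope, with 235, 250 and 218 CPM against 315 CPM in the positive spots themselves. Endothelial genes were likewise at 101, 112 and 110 CPM in the rings and at 139 CPM in T cell positive spots, 1.37 times the adjoining level (1.18 to 1.59). Median depth was 10301, 9709.5 and 8269 UMIs from adjoining to far. The rings were not weighted to quadrants or depth. In 0-UMI spots MHC class II stood at 3771 CPM in the upper left quadrant and 1299 CPM in the lower right. Distance to T cell positive spots and place in the section therefore cannot be told apart here.

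**Figure D4:**
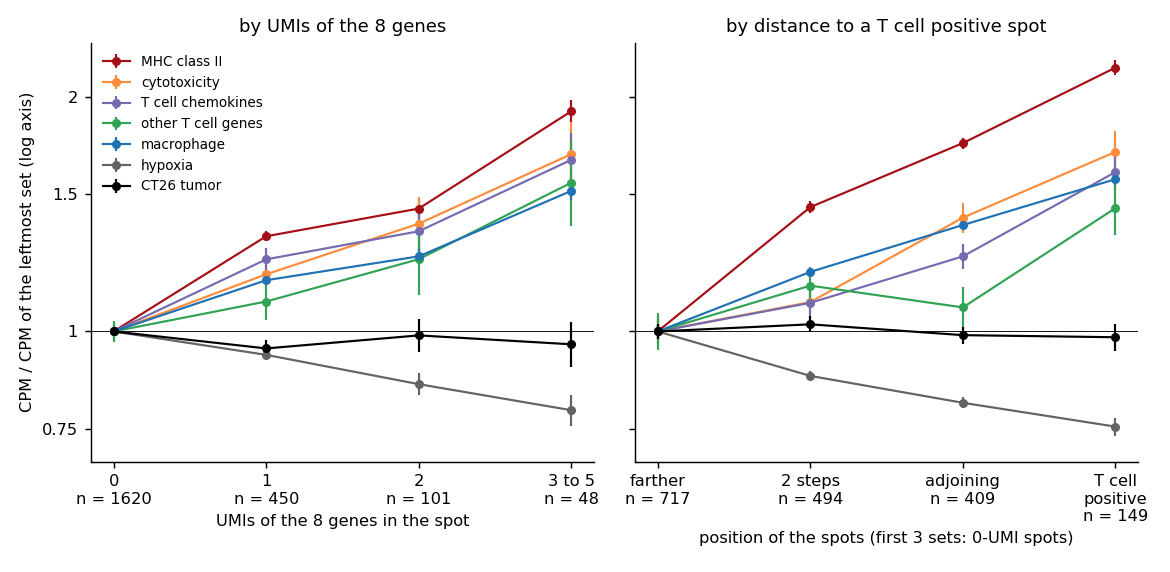
Levels of 7 gene lists in control spots, divided by the leftmost set of each panel, on a log axis; bars are 95% counting intervals. In the left panel spots are classed by UMIs of the 8 T cell genes, in the right panel 0-UMI spots by distance to the nearest T cell positive spot. Neither panel is weighted to place or depth. MHC class II climbs in both panels and hypoxia declines in both, whereas T cell genes outside the rule show no steady climb over the rings and are highest in the positive spots.

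Across the 7567 genes that reached 20 CPM on average, 56 were 1.5-fold or more higher in T cell positive spots, and 54 were as much lower. Of these, 30 and 42 had the same direction in all 4 quadrants. After weighting to depth deciles 33 and 17 still passed 1.5-fold, and after weighting to quadrant and depth 24 and 12. Largest among the genes higher in all quadrants were Cxcl9, AW112010, Cd302, Thy1, H2-Aa, Ccl4, H2-Eb1, Icam1, Bgn, Ly6c2, Bst1 and Ighm. AW112010, an interferon-inducible transcript, was at 213 and 94.3 CPM, a ratio of 2.26 (2.02 to 2.52), and was counted in 113 of the 149 spots. Bgn, a matrix proteoglycan gene, was at 1.73 (1.45 to 2.07) and kept 1.74 after weighting to quadrant and depth. Ighm, the heavy chain of IgM, was at 1.71 (1.31 to 2.20) with 75 UMIs, although B cell genes outside it were nearly absent.

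Genes lower in all quadrants were led by muscle. Myl4 had a ratio of 0.316 (0.188 to 0.498), Acta1, skeletal actin, of 0.379 (0.235 to 0.581) and Mylpf, fast myosin light chain, of 0.462 (0.298 to 0.685). The skeletal muscle list as a whole stood at 32.5 CPM against 90.6 CPM, a ratio of 0.359 (0.275 to 0.462) and 0.501 after weighting to quadrant and depth. The other genes were Cog3, Eml2, Kpna7, Pcgf2, Med12l, Arfgap3, Glrp1, Rac3 and Mt1, with ratios from 0.464 to 0.599. Mt1, a metallothionein that binds zinc, was by far the most abundant, at 573 and 958 CPM, and had a ratio of 0.746 after weighting to quadrant and depth.

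Spots with Cd8 UMIs and spots with Cd4 UMIs could hardly be told apart. The 54 spots with Cd8a or Cd8b1 but no Cd4 had 554 CPM of cytotoxicity genes and the 14 with Cd4 but no Cd8 had 471 CPM, a ratio of 1.18 (0.927 to 1.51). Gzmb had 28 and 9 UMIs (41.7 and 49.9 CPM), Prf1 17 and 5, Ifng 5 and 0, and Foxp3 1 and 1. Tnfrsf4 had 12 and 1 UMIs, a ratio of 3.23 (0.477 to 138), Il2ra 4 and 0, Ctla4 1 and 0, and Gzmk 0 and 0. The regulatory T cell list stood at 46.2 CPM in the Cd8 spots and 38.8 CPM in the Cd4 spots, a ratio of 1.19 (0.514 to 3.20). MHC class II genes were at a ratio of 0.962 (0.889 to 1.04). Macrophage genes were lower in the Cd8 spots, at 6220 against 6910 CPM, a ratio of 0.900 (0.845 to 0.960). With 14 Cd4 spots and no weighting to quadrant or depth, the part of place and depth in these ratios was not tested.

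The same rule found more spots in the rIL7 section, 726 of 1950 (37.2%, interval 35.1 to 39.4%), or 328 of 1869 (17.5%) after thinning to 5900 UMIs against 58 of 2002 (2.90%) in the control. Of rIL7 positive spots 32.1% lay within 2 steps of the outline, against 7.74% of its 0-UMI spots, whereas 19.5% and 16.5% did so in the control. The largest patch was 351 spots under rIL7 and 9 in the control, and 48.7% against 10.7% of the neighbors of T cell positive spots were positive. Ratios of T cell positive to 0-UMI spots, control first, were 1.61 and 2.16 for MHC class II, 1.46 and 1.84 for T cell chemokines, 1.35 and 1.87 for T cell genes outside the rule, and 1.34 and 1.52 for macrophage genes. They were 1.49 and 1.48 for cytotoxicity, 1.79 and 1.65 for regulatory T cell genes and 0.833 and 0.740 for hypoxia. For the CT26 genes the ratios were 0.979 and 0.864 (the latter 0.840 to 0.890). B and plasma cell genes had 0.582 in the control, on 7 UMIs, and 5.87 under rIL7. The rule chose unlike sets of spots. Positive spots held 2557 UMIs of the 8 genes in 726 spots under rIL7, with up to 23 in a spot. In the control they held 357 in 149 spots, with up to 5. MHC class II levels in the control went up with these UMIs, and none of these ratios was weighted to place or depth. With 1 section each, mouse, section and treatment cannot be told apart, and none of these differences was tested.

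**Figure D5:**
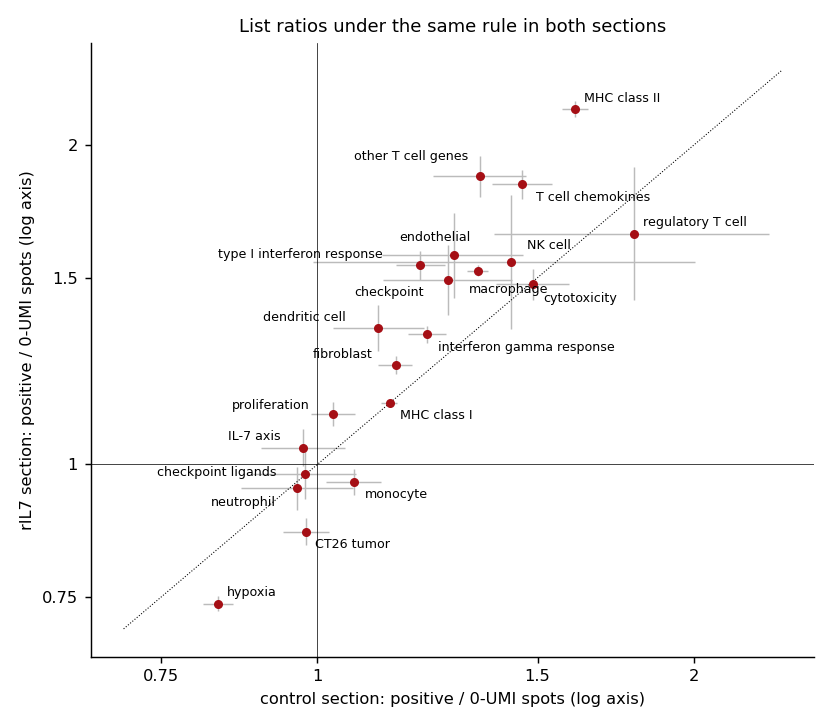
Ratio of CPM in T cell positive to 0-UMI spots for 21 gene lists, control section on the x axis and rIL7 section on the y axis, both log axes; bars are 95% counting intervals and the dotted line marks equal ratios. MHC class II lies at 1.61 and 2.16 and cytotoxicity near the line at 1.49 and 1.48.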

How the data were processed

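Visium libraries of 1 control and 1 rIL7 tumor section were analysed. The authors aligned reads with Space Ranger 1.1.0 to mm10 and deposited, for each spot, raw UMI counts of 32285 features. Spots over 200 genes and under 10% mitochondrial UMIs were kept, as in the study's methods, which removed 2 control spots and 1 rIL7 spot. The kept control spots held 22951678 UMIs. UMIs were summed over spots and divided by their total (CPM). The members and the gene lists were chosen with earlier results of these data known. The 8 rule genes were left out of every list. Genes named were list members and, among genes that averaged 20 CPM or more, passed 1.5-fold and had 1 direction in all 4 quadrants, the 12 largest and 12 smallest ratios. In the Cd8 and Cd4 comparison, 8 effector and regulatory genes were named. Intervals (95%) are Clopper-Pearson for shares and exact conditional binomial for ratios; they cover counting error only, and floors are 3 UMIs. With 1 section per group no test was run. The deposited array positions gave neighbors and the outline. Thinning used seed 7. Alternatives included TMM scaling (edgeR 4.0.16, R 4.3.3). Scripts ran in Python 3.11.15 with numpy 2.4.6 and scipy 1.17.1. The ratio step was tested on simulated data, and thinning was checked for spot totals on the control counts. Gene positions are RefSeq's for GRCm38, the build of mm10. The sections share 1702 spot barcodes, which are slide positions, not cells. The deconvolution of the study was not repeated, and lists are sums of transcripts, not cell numbers. Some genes stand in more than 1 list (Ccl5, Ciita, Cd274, Ccr2, Thy1, Tap1, Psmb8, Psmb9, Ctla4 and Eomes among them), and members of gene families such as the granzymes and H2 genes may share reads. Some list members are not reported here.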

Additional observations from a re-analysis of the deposited data

Results flagged for a closer look

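The monocyte list went opposite ways in the sections: the control ratio of T cell positive to 0-UMI spots was 1.07 and that under rIL7 0.963. The difference was not tested. Fn1 supplied 74.3% of the list's UMIs in the control 0-UMI spots.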

How the results depend on the processing

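No paired analysis was possible because each group holds 1 section, and leaving out a replicate was not possible for the same reason. None of the 6 list results whose main interval excluded 0 changed direction under 15 alternatives each. On the log2 scale the alternatives spanned 0.22 to 0.74 for other T cell genes (0.43 as reported), 0.25 to 0.76 for cytotoxicity (0.57), 0.16 to 0.77 for checkpoint (0.35), 0.18 to 0.38 for interferon gamma response (0.29), 0.30 to 0.94 for MHC class II (0.68), 0.13 to 0.60 for macrophage (0.43) and -0.15 to 0.01 for CT26 tumor genes (-0.03). At 1 UMI, 599 spots were positive and the values were 0.22, 0.34, 0.18, 0.49 and 0.28 for other T cell, cytotoxicity, interferon gamma, MHC class II and macrophage genes, and at 3 UMIs, with 48 spots, 0.64, 0.76, 0.38, 0.94 and 0.60. With CD3 chains and Trac alone, 83 spots were positive and MHC class II was at 0.64. Thinning to 5900 UMIs left 58 spots, with other T cell genes at 0.60, cytotoxicity at 0.68, checkpoint at 0.77, MHC class II at 0.53, macrophage at 0.26 and CT26 tumor genes at -0.15. Weighting 0-UMI spots to depth deciles gave cytotoxicity 0.38, MHC class II 0.47 and macrophage 0.21. Against adjoining 0-UMI spots the values were 0.28 for cytotoxicity, 0.19 for interferon gamma, 0.32 for MHC class II and 0.20 for macrophage. Interior spots gave 0.79 for MHC class II and 0.50 for macrophage, and equal weight per spot 0.72 for MHC class II. Without the list's most abundant gene, other T cell genes were at 0.74, interferon gamma at 0.35 and MHC class II at 0.75. Weighting to quadrants, chosen after seeing the data, gave 0.37 for MHC class II and 0.23 for macrophage. Quadrants and depth, chosen likewise, gave 0.25 for cytotoxicity, 0.16 for checkpoint, 0.30 for MHC class II and 0.13 for macrophage.

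Counts of genes past the fold were unstable. The 56 higher and 54 lower genes became 8 and 2 at 1 UMI, 241 and 392 at 3 UMIs, 491 and 471 after thinning, 302 and 254 from 5 CPM, 1720 and 2221 from 3 UMIs in all, 400 and 544 at a lower fold limit and 4 and 4 at 2-fold. A stricter rule and thinning leave fewer UMIs per gene by construction. Higher genes were 36 against adjoining spots and 91 without mitochondrial, ribosomal and haemoglobin genes in the totals, and interior spots gave 85 higher and 103 lower. Lower genes were 150 with CD3 chains and Trac alone, 18 weighted to depth deciles, 30 to quadrants and 13 to quadrants and depth. TMM scaling moved log2 ratios by 0.00093. For other movements the cause was not tested. Depth limits the rule genes: 101 of 149 spots sit at 2 UMIs.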

Other observations

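Skin keratinocyte genes stood at 106 CPM in T cell positive and 50.1 CPM in 0-UMI spots, a ratio of 2.12 (1.81 to 2.47), but 5 of the 149 spots held 139 of the 209 UMIs and 1 spot held 91. Without these 5 spots, left out after their values were seen, the ratio was 0.738 (0.570 to 0.943). Spots were left out of the positive set only. The 0-UMI set kept its own 5 richest spots, which held 15.1% of its UMIs. A ratio below 1 after such a removal therefore cannot show that the remaining positive spots were lower. Krt5 and Krt14, keratins of the basal skin layer, had 51 and 65 UMIs in 4 T cell positive spots each. The section's richest T cell positive spot, at array row 45 and column 23, held 5 UMIs of the rule, all of CD3 chains or Trac, in 13299 UMIs, with MHC class II genes at 5564 CPM. Of the 9 spots with 4 UMIs, 8 lay in the upper left quadrant. Adipocyte genes, nearly all Fabp4, were at a ratio of 1.04 (0.895 to 1.19), and red blood cell genes had 9 UMIs in T cell positive spots.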
